A study of Mus musculus with 8 samples.

Results

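The genes described here carry glucose into the cell and break it down to pyruvate and lactate. They are 10 genes chosen by name, 1 transporter and 9 enzymes, of 55413 genes in the bulk table and 15083 genes in the single-cell table. All 10 were in both tables and all 10 passed the filters on low values, among 11222 genes tested in bulk and 10559 tested for dopamine in the single cells. The members are Slc2a1, Hk2, Pfkp, Aldoa, Gapdh, Pgk1, Pgam1, Eno1, Pkm and Ldha.

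Glycolysis splits a glucose molecule into pyruvate in the cytosol, first spending ATP in the preparatory steps and then regaining more of it in the payoff steps. Lactate dehydrogenase turns pyruvate into lactate and restores the NAD+ that the payoff steps use, while pyruvate that enters mitochondria feeds respiration. Activated lymphocytes, group 2 innate lymphoid cells (ILC2s) among them, are known to take up more glucose when they grow and make cytokines, and hypoxia-inducible factor (HIF) and MYC are known activators of many of these genes.

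The bulk data were 3 IL-33 plus dopamine libraries and 3 IL-33 plus PBS libraries, each made with the full-length Smart-Seq2 method from 2000 sorted lung ILC2s of female C57BL/6 wild type mice. Mice received the alarmin IL-33 by nose for 3 days in a row, with dopamine, a catecholamine neurotransmitter, or with its PBS vehicle. The single-cell data were 1 droplet (10x) pool of ILC2s from male mice of the same strain, labelled with 8 antibody hashtags: hashtags 6, 7 and 8 for IL-33 plus dopamine (3924 cells), hashtags 3, 4 and 5 for IL-33 (4093 cells) and hashtags 1 and 2 for PBS without IL-33 (1059 cells). The bulk replicates are called biological in the labels, but neither the number of mice behind a library nor that behind a hashtag is stated there, so p-values measure the spread between libraries or hashtags, which may be partly technical. The cell table, not the sample labels, names PBS without IL-33, and no cell barcode was shared between hashtags.

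Bulk levels are TPM, transcript shares corrected for length and scaled to a library total of 1000000, whose depth is unknown, and genes reaching a TPM of 1 numbered 11502 to 11745 in the dopamine libraries and 9822 to 11384 in the PBS libraries, lowest in PBS library 2. Summed UMIs (molecules counted) were 6479893 to 6873266 per IL-33 plus dopamine hashtag, 5828078 to 9268932 per IL-33 hashtag, and 1397576 and 3358246 in the PBS hashtags. Of 10 ILC2 markers, all 10 reached a TPM of 1 in bulk and all 10 were in the single-cell table. Their summed level was 2429 to 3638 TPM with dopamine and 2415 to 3346 TPM with PBS, among them Gata3, the factor that defines ILC2s, at 272 to 473 TPM in the dopamine libraries and 306 to 456 TPM in the PBS libraries. Of the 10, Il7r, Rora and Thy1 were higher without overlap with dopamine, as were 23.5% of all genes tested. Their log2 fold changes were 1.83, 0.99 and 0.89 (limma adjusted p = 0.0703, 0.131 and 0.13). The other 7 overlapped, among them Klrg1 at -0.76 (limma adjusted p = 0.167). The first principal component of the bulk libraries was 39.7, 62.5 and 47.4 in the dopamine libraries and -3.3, -99.4 and -46.9 in the PBS libraries, with PBS library 2 farthest from the rest.

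Promoters are shown for the transporter gene and for 3 enzyme genes to which the values below return most often: Gapdh and Pgk1, the payoff genes with unadjusted p under 0.05 in bulk, and Ldha, whose level set 1 cell cluster apart from all others. The RefSeq promoter table (GRCm38.p6) held all 10 members in 16 entries, each 250 bases before to 50 bases after a start. Capitals mark ACGTG or GCGTG, the letters at the core of the site that HIF is known to bind, on either strand (CACGT or CACGC when read on the other strand). The MYC-type E-box CACGTG contains an ACGTG on each strand, so each such 6-letter run counts as 2 overlapping matches.
Slc2a1, chr4:119108495-119108794, plus strand: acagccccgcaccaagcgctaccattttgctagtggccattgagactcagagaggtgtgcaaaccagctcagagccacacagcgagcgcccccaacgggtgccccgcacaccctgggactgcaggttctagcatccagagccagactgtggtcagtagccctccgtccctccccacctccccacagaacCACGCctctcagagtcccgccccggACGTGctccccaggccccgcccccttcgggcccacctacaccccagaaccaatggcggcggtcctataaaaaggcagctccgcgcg
Gapdh, chr6:125165724-125166023, minus strand: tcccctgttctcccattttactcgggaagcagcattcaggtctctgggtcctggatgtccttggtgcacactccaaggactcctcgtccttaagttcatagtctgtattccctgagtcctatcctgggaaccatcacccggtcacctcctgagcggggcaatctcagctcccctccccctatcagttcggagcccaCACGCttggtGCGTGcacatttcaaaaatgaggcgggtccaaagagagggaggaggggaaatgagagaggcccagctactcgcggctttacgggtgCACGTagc
Pgk1, chrX:106186850-106187149, plus strand: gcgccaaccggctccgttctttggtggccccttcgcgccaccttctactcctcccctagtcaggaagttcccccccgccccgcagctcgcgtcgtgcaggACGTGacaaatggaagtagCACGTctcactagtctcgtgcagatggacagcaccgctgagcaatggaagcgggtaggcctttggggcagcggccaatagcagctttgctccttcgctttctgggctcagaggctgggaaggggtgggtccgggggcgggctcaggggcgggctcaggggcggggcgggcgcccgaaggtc
Ldha, upstream entry, chr7:46845554-46845853, plus strand: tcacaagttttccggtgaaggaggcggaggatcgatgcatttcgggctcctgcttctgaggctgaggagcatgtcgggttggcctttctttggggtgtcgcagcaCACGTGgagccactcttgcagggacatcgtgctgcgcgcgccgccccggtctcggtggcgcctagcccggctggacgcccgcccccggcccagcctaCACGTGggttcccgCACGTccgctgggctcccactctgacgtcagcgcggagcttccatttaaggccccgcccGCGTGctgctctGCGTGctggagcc

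Slc2a1 and Pgk1 held 2 matches each, Gapdh held 3 and this Ldha entry held 7, of which 4 lie in 2 CACGTG runs. At least 1 match was found in 14 of the 16 member entries (87.5%) and in some entry of all 10 members, against 43.8% of all 32851 promoters in the table. ACGTG on either strand was in 9 entries (56.2%), against 19.6% of all promoters. CACGTG was in 1 entry, that of Ldha (6.25%), against 7.15% of all promoters. Overlapping entries of Aldoa and of Eno1 hold the same matches, so these are counted more than once. The words searched each hold a CG, and the promoters were not matched for CG content. These are matches of letters, and none of the deposited data measures binding.

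In bulk, dopamine came with unequal directions along the pathway: the transporter gene and the first kinase genes had higher mean levels than with PBS, and most payoff genes and Ldha had lower ones. None of these differences passed the test at an adjusted p under 0.05 (limma with trend on log2(TPM + 1), 0 of 10 members). In the same test 4 genes, 0.0356% of all 11222, were called.

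Slc2a1 encodes GLUT1, the main glucose transporter of activated lymphocytes. Its level was 19.8, 22.7 and 16.9 TPM in the dopamine libraries and 16.0, 2.67 and 9.25 TPM in the PBS libraries. All dopamine values lay above all PBS values, narrowly above PBS library 1 and far above PBS library 2. The mean was 19.8 ± 2.86 TPM with dopamine and 9.29 ± 6.65 TPM with PBS (SD, n = 3 each), a log2 fold change of 1.26 ± 0.58 (SE, limma adjusted p = 0.211), and without PBS library 2 it was 0.65. It was the only member higher without overlap, against 23.5% of all genes tested.

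Hk2 encodes hexokinase 2, which traps glucose in the cell as glucose 6-phosphate. It stood at 16.7, 15.8 and 10.2 TPM in the dopamine libraries and at 13.3, 3.83 and 7.82 TPM in the PBS libraries. The groups overlapped through PBS library 1, and PBS library 2 was again the lowest. The log2 fold change was 0.82 ± 0.52 (SE, limma adjusted p = 0.341), and 0.41 without PBS library 2.

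Pfkp encodes the platelet-type phosphofructokinase, one of the isoenzymes of the committed step. It was measured at 124, 160 and 96.2 TPM in the dopamine libraries and at 114, 28.8 and 59.8 TPM in the PBS libraries. Dopamine library 3 lay below PBS library 1, so the groups overlapped, and PBS library 2 was the lowest here too. The log2 fold change was 1.08 ± 0.44 (SE, limma adjusted p = 0.179), and 0.58 without PBS library 2. Pfkp shares exon sequence with Pitrm1 on the opposite strand, which averaged 19.6 TPM over the 6 libraries, and reads of the overlap cannot be told apart without strand.

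Aldoa encodes the aldolase that splits the hexose bisphosphate. Its level was 795, 748 and 752 TPM in the dopamine libraries and 993, 802 and 825 TPM in the PBS libraries. The dopamine values all lay below the PBS values, with a gap of under 10 TPM between dopamine library 1 and PBS library 2. The log2 fold change was -0.19 ± 0.15 (SE, limma adjusted p = 0.458), and -0.089 without PBS library 1.

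Among the payoff genes, Gapdh, whose enzyme makes NADH from the triose phosphate, was the member with the highest TPM. It stood at 2645, 2242 and 2392 TPM in the dopamine libraries and at 3283, 3464 and 2983 TPM in the PBS libraries. Every dopamine library lay below every PBS library. The mean was 2427 ± 204 TPM with dopamine and 3243 ± 243 TPM with PBS (SD, n = 3 each), a log2 fold change of -0.42 ± 0.12 (SE, limma adjusted p = 0.109).

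Pgk1 encodes phosphoglycerate kinase, the first ATP-yielding step. Its level was 207, 167 and 192 TPM in the dopamine libraries and 326, 253 and 268 TPM in the PBS libraries, again with no overlap. The mean was 189 ± 20.5 TPM with dopamine and 282 ± 38.6 TPM with PBS (SD, n = 3 each). This was the lowest fold change of the 10 members, -0.58 ± 0.21 on the log2 scale (SE, limma adjusted p = 0.147).

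Pgam1 encodes the phosphoglycerate mutase. It was measured at 171, 132 and 96.6 TPM in the dopamine libraries and at 211, 145 and 135 TPM in the PBS libraries. Dopamine library 1 lay above PBS libraries 2 and 3, so the groups overlapped, and the log2 fold change was -0.30 ± 0.28 (SE, limma adjusted p = 0.510). Leaving out PBS library 1 gave -0.11, leaving out dopamine library 3 gave -0.093 and leaving out dopamine library 1 gave -0.50.

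Eno1 encodes enolase 1, which forms phosphoenolpyruvate. Its level was 356, 384 and 423 TPM in the dopamine libraries and 460, 453 and 539 TPM in the PBS libraries. The groups did not overlap, and the log2 fold change was -0.32 ± 0.17 (SE, limma adjusted p = 0.277). The named copy Eno1b, to which a share of these reads may have been assigned, stood at 121, 47.2 and 0 TPM in the dopamine libraries and at 141, 121 and 2.95 TPM in the PBS libraries, varying widely within both groups. The sum of Eno1 and Eno1b was 478, 431 and 423 TPM in the dopamine libraries and 601, 574 and 542 TPM in the PBS libraries, and it did not overlap either.

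Pkm encodes the pyruvate kinase that forms pyruvate and ATP. It stood at 485, 471 and 493 TPM in the dopamine libraries and at 626, 313 and 367 TPM in the PBS libraries. The dopamine values were tightly grouped between PBS library 1 and the other PBS libraries. The log2 fold change was 0.21 ± 0.25 (SE, limma adjusted p = 0.600), and it was -0.33 after median-of-ratios scaling of the TPM. It was 0.51, 0.0096 and 0.12 without PBS libraries 1, 2 and 3 in turn, so its size rests on PBS libraries 1 and 2.

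Ldha encodes the lactate dehydrogenase subunit that favours lactate formation. Its level was 1532, 1237 and 1417 TPM in the dopamine libraries and 1959, 1570 and 1637 TPM in the PBS libraries. All dopamine values lay below all PBS values, with dopamine library 1 close under PBS library 2. The mean was 1395 ± 149 TPM with dopamine and 1722 ± 208 TPM with PBS (SD, n = 3 each), a log2 fold change of -0.30 ± 0.15 (SE, limma adjusted p = 0.236).

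**Figure D1:**
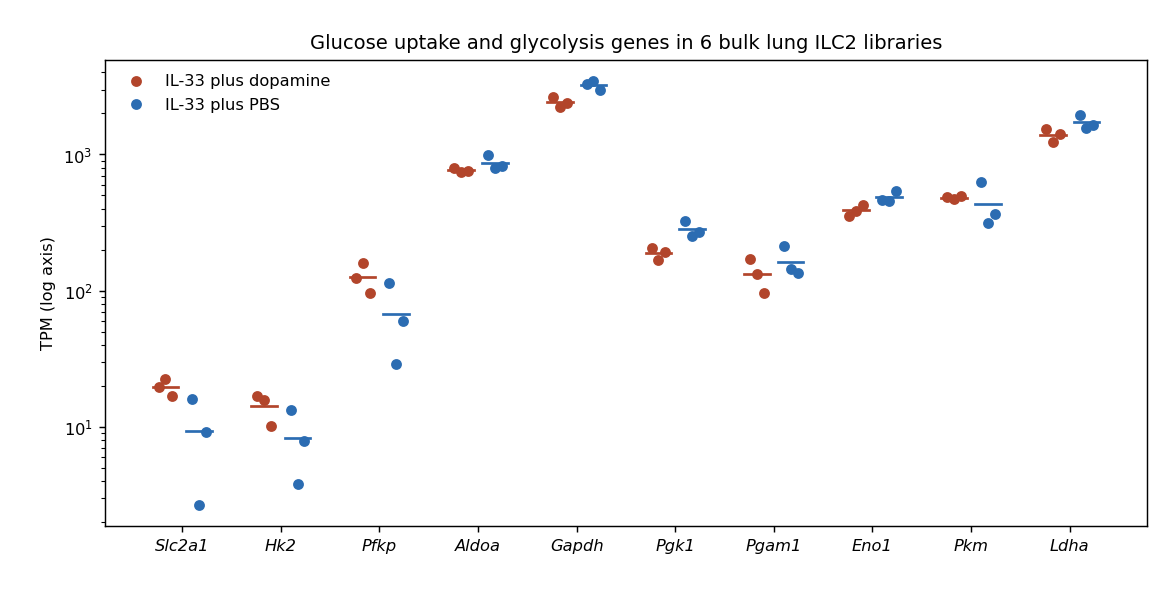
Level of each member in the 6 bulk libraries, in TPM on a log axis. Points are libraries 1 to 3 of each treatment from left to right and lines are group means. Aldoa, Gapdh, Pgk1, Eno1 and Ldha are lower in all dopamine libraries than in all PBS libraries, and Slc2a1 is higher. The spread of Slc2a1, Hk2 and Pfkp in the PBS libraries is wide, down to 2.67, 3.83 and 28.8 TPM in PBS library 2.

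In all, 5 of 10 members were lower without overlap with dopamine (Aldoa, Gapdh, Pgk1, Eno1 and Ldha), against 6.57% of all genes tested. The 5 are among the most abundant transcripts of the cells, and abundant genes differed from others in this comparison. With bins chosen after the values were seen, 30.4% of the 1046 genes with a mean of at least 100 TPM were lower without overlap, against 7.11% of genes from 20 to under 100 TPM and 2.88% of genes under 20 TPM. The median log2 fold change was -0.11, 0.40 and 0.59 in those bins, and 0.49 over all genes tested. Of the 7 members with a mean of at least 100 TPM, 5 were lower without overlap. Of the 4 members with a higher mean in the dopamine libraries, Slc2a1, Hk2 and Pfkp were under 100 TPM over all libraries and Pkm was above it.

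Relative to the median of all genes, the log2 fold changes were 0.77 for Slc2a1, 0.33 for Hk2, 0.59 for Pfkp and -0.28 for Pkm. Without PBS library 2 these were 0.33 for Slc2a1, 0.096 for Hk2 and 0.27 for Pfkp. Without PBS library 1, Hk2 was 0.52, Pfkp 0.88 and Pkm -0.16, and Hk2 was 0.18 when dopamine library 1 was left out and 0.56 when dopamine library 3 was. The values over all libraries were -0.68 for Aldoa, -0.91 for Gapdh, -1.07 for Pgk1, -0.80 for Pgam1, -0.81 for Eno1 and -0.80 for Ldha. These genes, like Pkm, all had means of at least 100 TPM, where the median log2 fold change was -0.11, against 0.49 over all genes. Relative to genes of that level they would thus lie nearer to their unadjusted fold changes. At an unadjusted p under 0.05, 3 of 10 members passed (Pfkp, Gapdh and Pgk1), against 24.1% of all genes. The members' sum was 0.635%, 0.558% and 0.589% of all TPM in the dopamine libraries and 0.800%, 0.704% and 0.683% in the PBS libraries. The dopamine shares all lay below the PBS shares, and Gapdh and Ldha make up most of this sum.

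**Figure D2:**
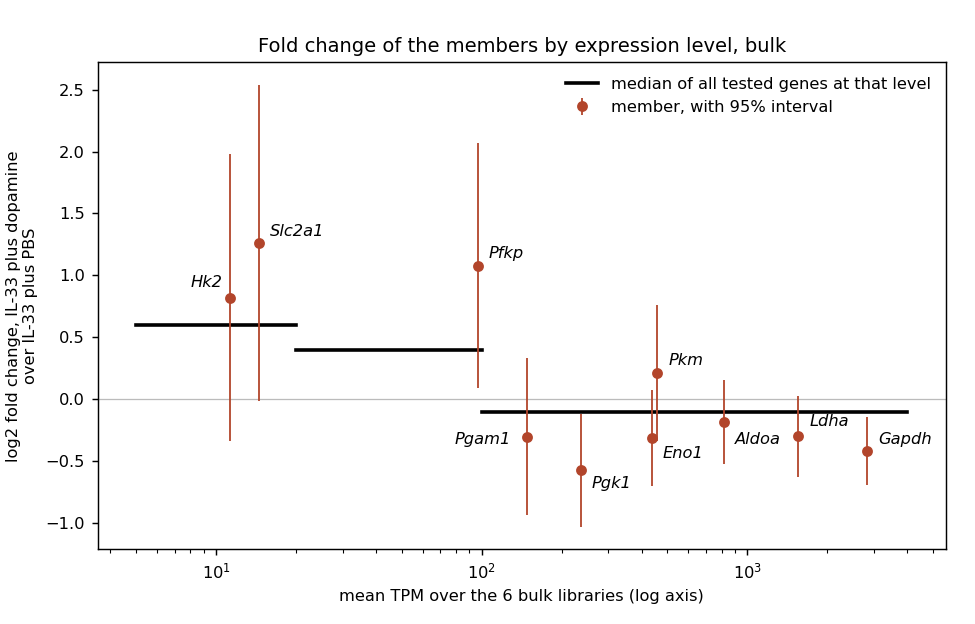
Log2 fold change of each member in bulk, IL-33 plus dopamine over IL-33 plus PBS, against its mean TPM over the 6 libraries on a log axis. Bars are 95% intervals, and black lines are the median of all tested genes in each level bin, 0.59, 0.40 and -0.11 from left to right (the leftmost bin also holds genes below the axis). The members under 100 TPM lie above 0, and the members above it lie below 0 except Pkm at 0.21.

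The dopamine libraries also held more transcripts of genes used as markers of other lymphocytes, whose part in these differences was not tested. The 6 NK cell and ILC1 markers summed to 299 to 480 TPM in the dopamine libraries and to 81.8 to 252 TPM in the PBS libraries, and the 4 ILC3 markers to 85.0 to 173 TPM with dopamine and 10.9 to 62.2 TPM with PBS. Both sums were higher in every dopamine library than in every PBS library, and so was that of the T cell markers. Gzmb made up most of the NK cell and ILC1 sum, at 418, 334 and 266 TPM with dopamine and 98.9, 81.5 and 224 TPM with PBS. Gzmb, Ncr1, Klrb1c and Tbx21 were each higher without overlap, as were 23.5% of all genes tested, and Eomes and Prf1 overlapped. The 9 T cell markers summed to 1687 to 2160 TPM with dopamine and 1150 to 1662 TPM with PBS, of which 8 reached a TPM of 1 in some library. Trbc1, Trbc2 and Cd3g had the highest means among them, at 529, 805.5 and 301 TPM with dopamine. The ILC2s of the single-cell pool held these at 347 to 487, 411 to 642 and 40.1 to 114 UMIs per 1000000, so the sum is not specific to T cells. Trbc1 and Trbc2 overlapped between treatments in bulk. The means of Cd3e, Cd3d and Trac were 107, 108 and 116 TPM with dopamine and 18.2, 18.4 and 21.35 TPM with PBS. Unlike Trbc1, Trbc2 and Cd3g, these were low in the single-cell pool, at 0.716 to 8.06, 1.75 to 3.57 and 5.36 to 11.45 UMIs per 1000000. The 5 B cell markers summed to 105 to 288 TPM with dopamine and 54.4 to 145 TPM with PBS, and the 7 myeloid markers, led by Lyz2 in dopamine library 2 and in PBS library 1, to 2.40 to 410 TPM with dopamine and 11.1 to 160 TPM with PBS. The B cell and myeloid sums overlapped between treatments. Of 7 markers of epithelium, endothelium and fibroblasts, Scgb1a1, Cdh5, Col1a1 and Col3a1 were listed at 0 in all libraries, and the sum was 33.6 to 44.1 TPM with dopamine and 14.3 to 27.9 TPM with PBS. Erythroid markers summed to 27.8 to 49.1 TPM with dopamine and 43.9 to 59.0 TPM with PBS, all from Hba-a1. In such bulk samples, fewer cells of a type and less RNA per cell cannot be told apart. With weights for library quality, limma called 4 members (Pfkp, Gapdh, Pgk1 and Eno1) among 25% of all genes tested. Once the count of detected genes entered the fit as a covariate, the log2 fold changes of Slc2a1, Hk2 and Pfkp were -0.076, -0.083 and -0.077. That count was higher in every dopamine library than in every PBS library, so this fit cannot tell it apart from the treatment.

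In the single cells, which came from male mice and measured the 3' end of transcripts, dopamine under IL-33 came with no called change in any member. Levels are UMIs scaled to a hashtag total of 1000000 (CPM), and fold changes are IL-33 plus dopamine over IL-33. Of 10 members, 0 were called by edgeR's quasi-likelihood test (background 0.0284%, 3 of 10559 genes) and 0 by DESeq2. At an unadjusted p under 0.05 the count was 0 of 10 (background 9.47%). None was higher without overlap (background 7.81%) and none was lower without overlap (background 6.93%). The log2 fold changes ran from -0.15 to 0.20.

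Slc2a1 had 12.5, 15.0 and 16.7 CPM in the IL-33 plus dopamine hashtags, 17.2, 15.1 and 13.7 CPM in the IL-33 hashtags, and 14.3 and 15.5 CPM in the PBS hashtags. The 3 groups overlapped. The log2 fold change with dopamine was -0.060 (95% interval -0.39 to 0.27), in bulk 1.26 (-0.017 to 2.54).

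Hk2 had 29.7, 35.1 and 44.3 CPM in the IL-33 plus dopamine hashtags, 32.4, 28.0 and 34.3 CPM in the IL-33 hashtags, and 33.6 and 34.5 CPM in the PBS hashtags. The highest value, in hashtag 8, stood above all others. The dopamine log2 fold change of 0.20 was the highest of the members (95% interval -0.13 to 0.53). Pfkp had 37.1 to 44.5 CPM with IL-33 plus dopamine, 37.2 to 47.6 CPM with IL-33 and 41.5 to 44.4 CPM with PBS, with a dopamine log2 fold change of -0.024 (-0.29 to 0.24). In the single cells these kinase genes showed no call and no separation.

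Gapdh had 508, 566 and 509 CPM in the IL-33 plus dopamine hashtags, 579, 548 and 596 CPM in the IL-33 hashtags, and 480 and 540 CPM in the PBS hashtags. Its values overlapped between dopamine and IL-33 through hashtag 7, and the dopamine log2 fold change was -0.12 (95% interval -0.28 to 0.036). Pgk1 had 87.1, 97.0 and 78.6 CPM in the IL-33 plus dopamine hashtags, 99.0, 91.3 and 101 CPM in the IL-33 hashtags, and 79.4 and 86.4 CPM in the PBS hashtags, with a dopamine log2 fold change of -0.15 (-0.35 to 0.042). Pgam1 had 33.6 to 44.7 CPM with IL-33 plus dopamine, 41.4 to 48.9 CPM with IL-33 and 34.8 to 42.2 CPM with PBS, with a dopamine log2 fold change of -0.15 (-0.39 to 0.086). For these 3 payoff genes the intervals reach across 0, with their lower ends at folds of 0.825, 0.787 and 0.761.

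The other payoff genes and the ends of the pathway varied as much within groups as between them. Eno1 had 54.7 to 68.2 CPM with IL-33 plus dopamine, 52.0 to 63.0 CPM with IL-33 and 60.2 to 65.8 CPM with PBS. Pkm had 193 to 231 CPM with IL-33 plus dopamine, 202 to 234 CPM with IL-33 and 202 to 211 CPM with PBS. Ldha had 625, 750 and 894 CPM in the IL-33 plus dopamine hashtags, 694, 855 and 635 CPM in the IL-33 hashtags, and 797 and 747 CPM in the PBS hashtags. The dopamine log2 fold changes were 0.14 (95% interval -0.11 to 0.39) for Eno1, -0.046 (-0.25 to 0.16) for Pkm and 0.064 (-0.24 to 0.37) for Ldha. Aldoa, with 332 to 403 CPM with IL-33 plus dopamine and 351 to 394 CPM with IL-33, had the dopamine value nearest to 0, 0.0073 (-0.19 to 0.21).

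**Figure D3:**
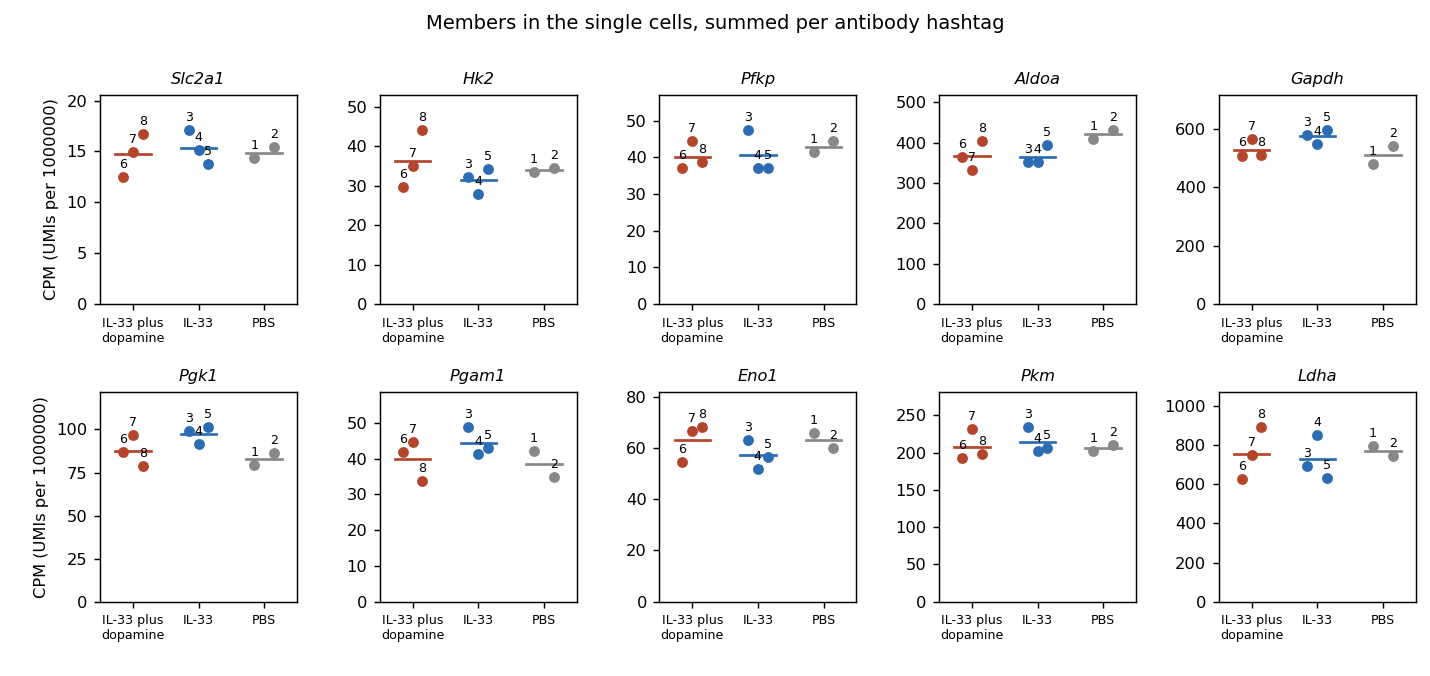
CPM of each member per hashtag in the single cells. Points are hashtags, numbered, and lines are group means, for IL-33 plus dopamine, IL-33 and PBS. Values overlap between IL-33 plus dopamine and IL-33 in all 10 panels. Aldoa is higher in both PBS hashtags (410 and 433 CPM) than in all others.

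IL-33 itself, against PBS, also gave no member call: 0 of 10 by edgeR's quasi-likelihood test (background 0.704%). Aldoa was lower with IL-33, at 351, 352 and 394 CPM in the IL-33 hashtags against 410 and 433 CPM in the PBS hashtags, a log2 fold change of -0.24 (95% interval -0.41 to -0.073, edgeR adjusted p = 0.188). It was the 1 member of 10 at an unadjusted p under 0.05 (background 13.4%) and the 1 member lower without overlap (background 13.6%). Gapdh and Pgk1 were the 2 members higher without overlap (background 20.9%), with log2 fold changes of 0.13 (-0.035 to 0.29) and 0.18 (-0.040 to 0.41). With cells between the 10th and 90th percentile of UMIs alone, Gapdh was at -0.016. The other 7 members overlapped between IL-33 and PBS.

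IL-33 plus dopamine against PBS shares its hashtags with both comparisons above and adds no replicate. No member was called (0 of 10, background 0%, 0 of 10612 genes by edgeR, and 0 by DESeq2), and 0 of 10 had an unadjusted p under 0.05 (background 5.14%). Aldoa was the 1 member lower without overlap (background 9.09%), with a log2 fold change of -0.24 (95% interval -0.48 to 0.0010), and no member was higher without overlap (background 14.9%). The members' sum was 0.195% to 0.228% of UMIs with IL-33 plus dopamine, 0.212% to 0.222% with IL-33 and 0.217% to 0.221% with PBS.

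**Figure D4:**
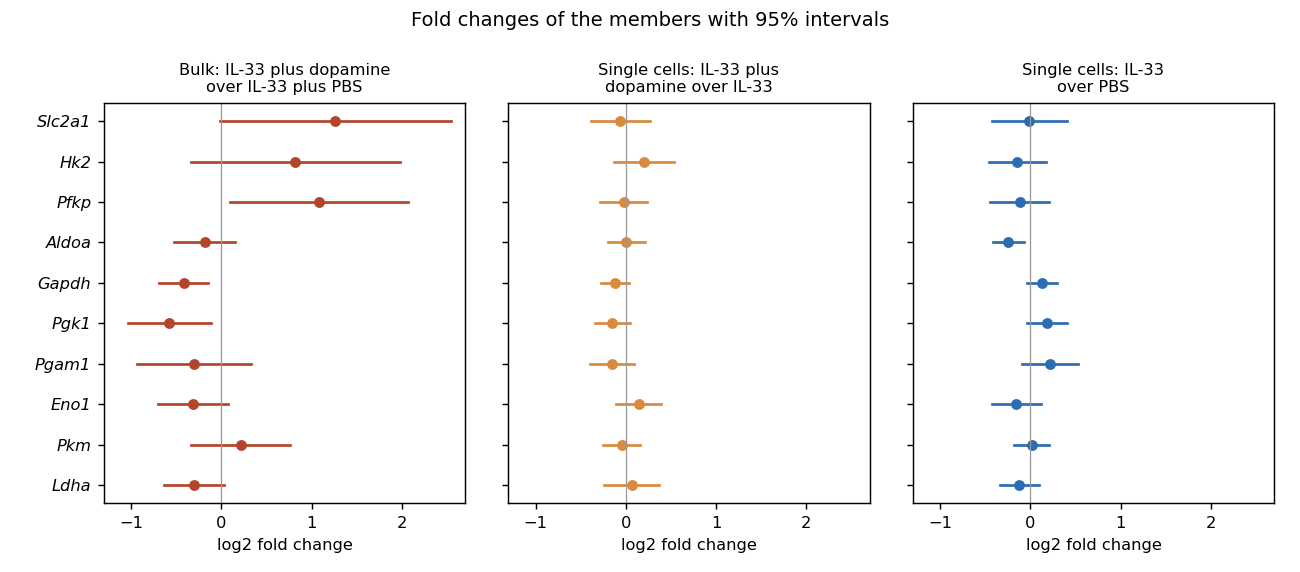
Log2 fold changes of the members with 95% intervals in bulk (IL-33 plus dopamine over IL-33 plus PBS) and in the single cells (IL-33 plus dopamine over IL-33, and IL-33 over PBS). The bulk intervals are the widest for Slc2a1, Hk2 and Pfkp. The single-cell intervals for dopamine include 0 for all 10 members, and that for IL-33 leaves out 0 for Aldoa.

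The members also differed between the 6 cell clusters drawn by the authors. These levels are a description, since the clusters were made from the same cells' expression, and each point is the summed UMIs of 1 hashtag in 1 cluster with at least 20 cells (47 sums). Slc2a1 had its highest mean in cluster 3, at 27.3 ± 7.13 CPM, and its lowest in cluster 0, at 8.86 ± 1.87 CPM (SD over 8 hashtags each), a ratio of 3.08. Clusters 5, 2, 4 and 1 lay between them with overlapping neighbours. Cluster 3 was the highest in 5 of 8 hashtags. In the IL-33 plus dopamine hashtags 6, 7 and 8 the highest values lay in clusters 2, 4 and 5, at 23.0, 28.1 and 37.4 CPM. These rest on only 27, 12 and 5 UMIs. Cluster 3 had 21.7, 27.0 and 19.7 CPM in those hashtags, from 19, 35 and 30 UMIs.

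Ldha was highest in cluster 3 in all 8 hashtags, at 1054 to 1420 CPM. The next cluster in order, cluster 2, had 716 to 963 CPM and did not overlap with it, whereas all later neighbours overlapped, down to 451 to 761 CPM in cluster 1. Cluster 3 thus had the highest mean for the transporter gene and for the lactate gene. Pfkp also had its highest mean there, at 53.5 ± 9.78 CPM, against 33.2 ± 3.73 CPM in cluster 4 (SD over 8 hashtags each). It was highest in cluster 3 in 5 of 8 hashtags and overlapped with cluster 5, at 15.0 to 63.0 CPM.

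Gapdh, Pgk1 and Pgam1 had another order. They were highest in cluster 5, at 704 ± 84.1 CPM for Gapdh, 107 ± 29.2 CPM for Pgk1 and 57.4 ± 19.9 CPM for Pgam1 (SD over 7 hashtags). Cluster 1 came next for each and overlapped with cluster 5. Gapdh and Pgk1 were lowest in cluster 2, at 460 ± 27.4 and 76.9 ± 10.1 CPM, and Pgam1 was lowest in cluster 0 in all 8 hashtags, at 25.9 ± 4.07 CPM (SD over 8 hashtags each).

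Pkm was highest in cluster 1, at 251 ± 19.3 CPM, and lowest in cluster 3, at 181 ± 20.8 CPM (SD over 8 hashtags each), the reverse of Ldha. Hk2 stood at 45.6 ± 9.36 CPM in cluster 2 and 44.4 ± 11.1 CPM in cluster 3, and was lowest in cluster 1, at 18.6 ± 3.80 CPM (SD over 8 hashtags each). Aldoa and Eno1 varied least, with ratios of the highest to the lowest cluster mean of 1.27 and 1.12. Over the 47 sums, Gapdh followed Pkm (Pearson's r = 0.693) and Pgk1 (r = 0.656), while Ldha followed Slc2a1 (r = 0.588) and Hk2 (r = 0.558) and ran against Pkm (r = -0.505). These sums share a pool, hashtags and depth, so the correlations are descriptions.

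**Figure D5:**
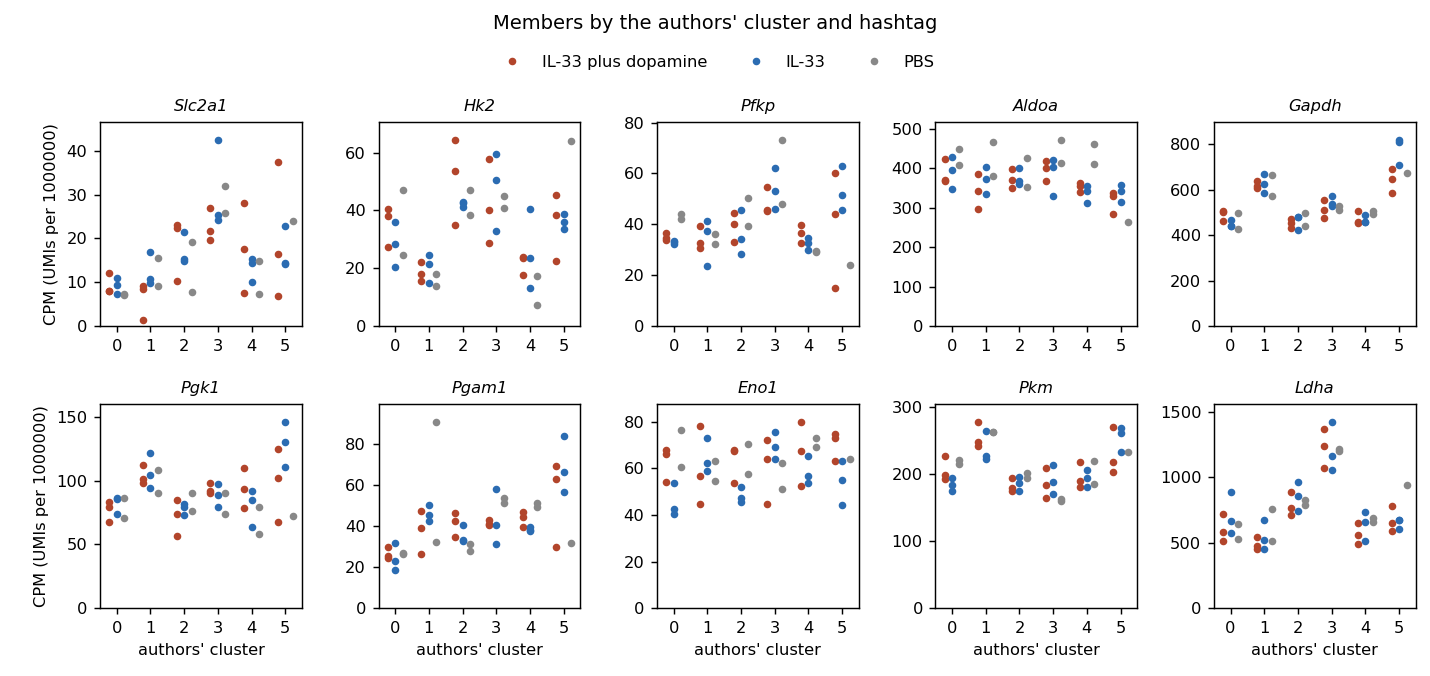
CPM of each member in the authors' clusters 0 to 5, 1 point per hashtag with at least 20 cells, coloured by treatment, with IL-33 plus dopamine left of IL-33 and PBS. Ldha stands out in cluster 3, at 1054 to 1420 CPM, and Gapdh is highest in cluster 5 and next highest in cluster 1.

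Treatments differed in how their cells were spread over clusters. Cluster 5 held 1.76% to 14.2% of cells in the IL-33 plus dopamine hashtags, 8.88% to 22.0% in the IL-33 hashtags, and 2.57% and 3.08% in the PBS hashtags. In the same order, cluster 3 held 11.4% to 20.1%, 7.74% to 11.9%, and 20.6% and 11.4%. Cluster 0 held 25.3% to 30.4%, 16.1% to 24.4%, and 32.5% and 32.1%. Cluster 1 held 11.7% to 21.6%, 26.2% to 27.8%, and 8.36% and 23.3%. Within the 5 clusters that could be tested, the IL-33 over PBS log2 fold change of Gapdh was -0.10 to 0.07 and that of Pgk1 -0.11 to 0.10, while Aldoa stayed below 0 in all 5 (-0.36 to -0.05). Cluster 5, which holds the highest Gapdh, could not be tested against PBS, because 1 PBS hashtag had under 20 cells there.

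Within clusters, edgeR called 0 of 60 member tests for IL-33 plus dopamine against IL-33 (background 0.0731% of gene-by-cluster tests) and 0 of 50 for IL-33 against PBS (background 0.141%). At an unadjusted p under 0.05 there were 5 of 60 (8.33%, background 6.38%) and 2 of 50 (4%, background 7.07%). The 5 for dopamine were Eno1 in clusters 0 and 2 (log2 fold changes 0.44 and 0.38), Ldha in cluster 0 (-0.24), Slc2a1 in cluster 1 (-0.85) and Gapdh in cluster 5 (-0.29). The 2 for IL-33 were Eno1 in cluster 0 (-0.54) and Aldoa in cluster 4 (-0.36).

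Detection in single cells followed depth and level. With every cell thinned to 2000 UMIs, which left out 1 to 2 cells per treatment, a UMI of Ldha was found in 69.1% of cells with IL-33 plus dopamine, 69.5% with IL-33 and 68.9% with PBS (unthinned 89.5%, 92.2% and 89.1%). Gapdh was found in 61.7%, 64.6% and 61.9% of thinned cells, and Slc2a1 in 2.78%, 2.42% and 2.46%, in the same order of treatments. Lyz2, a myeloid gene that ILC2s should lack, was found in 0.102%, 0.098% and 0.095% of thinned cells, but the level of free RNA differs between genes. Scgb1a1, a club cell gene listed at 0 in all bulk libraries, was found in 15.2%, 15.0% and 15.6% of thinned cells, at 87.3, 76.8 and 95.5 CPM. By cluster its thinned share was 12.4% to 16.3%, and that of Slc2a1 was 1.66% to 4.42%. The share of Slc2a1 lay below that of Scgb1a1 in every treatment and cluster, so its low level was not shown to exceed free RNA, and neither was that of Hk2, found in 2.79% to 7.54% of thinned cells by cluster. The same limit holds for Pfkp (7.06% to 8.98% by treatment), Pgam1 (6.52% to 7.72%) and Eno1 (10.6% to 11.2%). Pgk1, at 14.8% to 16.9% by treatment, was near Scgb1a1. Genes outside the members with a CPM below that of Scgb1a1, such as Slc2a3, carry this limit too.

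The other genes of the pathway gave no call in these comparisons either. Of 16 isoenzymes and steps outside the members, 15 were tested in bulk and 0 were called. Of these, 2 of 15 were higher without overlap with dopamine (13.3%, background 23.5%; Hk3 and Adpgk, named after their values were seen), and 1 was lower (6.67%, background 6.57%), Tpi1, triose phosphate isomerase. The median log2 fold change of the 15 was 0.19, against 0.49 over all genes. Tpi1 was at 151, 108 and 130 TPM in the dopamine libraries and at 214, 212 and 183 TPM in the PBS libraries, a log2 fold change of -0.65 (limma adjusted p = 0.138), near that of Pgk1. The log2 fold changes in bulk were 1.99 for Slc2a3 (GLUT3), 1.19 for Hk1, 0.70 for Pfkl, 0.039 for Gpi1 and -0.14 for Ldhb, all with overlap.

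In the single cells, 11 of these 16 genes were tested and 0 were called, but 4 of 11 were lower without overlap with dopamine under IL-33 (36.4%, background 6.93%), the same 4 at an unadjusted p under 0.05 (background 9.47%): Slc2a3, Gpi1, Ldhb and Bpgm, the last named after its values were seen. Gpi1 encodes the isomerase between hexokinase and phosphofructokinase. It had 232, 225 and 209 CPM in the IL-33 plus dopamine hashtags, 269, 247 and 263 CPM in the IL-33 hashtags, and 188 and 214 CPM in the PBS hashtags. The IL-33 values were the highest, with a log2 fold change of -0.23 for dopamine over IL-33 (edgeR adjusted p = 0.401) and 0.32 for IL-33 over PBS (edgeR adjusted p = 0.116).

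Slc2a3 had 19.7, 18.3 and 20.1 CPM in the IL-33 plus dopamine hashtags, 24.7, 21.3 and 24.2 CPM in the IL-33 hashtags, and 16.5 and 16.1 CPM in the PBS hashtags. The 3 treatments did not overlap, with log2 fold changes of -0.28 for dopamine over IL-33 (edgeR adjusted p = 0.494) and 0.50 for IL-33 over PBS (edgeR adjusted p = 0.206). Ldhb, the lactate dehydrogenase subunit that favours pyruvate, had 20.1 to 25.7 CPM with IL-33 plus dopamine, 25.7 to 31.3 CPM with IL-33 and 21.5 to 28.3 CPM with PBS. For IL-33 over PBS, 4 of 11 were higher without overlap (36.4%, background 20.9%): Slc2a3, Gpi1, Bpgm and Hk1, the last at 38.8 to 42.6 CPM with IL-33 and 27.2 and 28.9 CPM with PBS (log2 fold change 0.48, edgeR adjusted p = 0.132). The IL-33 hashtags enter both comparisons, so the values are given side by side only.

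Genes that regulate the pathway or its branches gave 0 calls in all comparisons. For dopamine in bulk, 6 of 17 HIF pathway genes were higher without overlap, against 23.5% of all genes, and 0 were lower, at a median log2 fold change of 0.63, against 0.49 over all genes. Hif1a was one of the 6, at 52.6, 44.8 and 45.2 TPM in the dopamine libraries and 43.7, 11.2 and 8.37 TPM in the PBS libraries, and the dopamine values lay close above PBS library 1. In the single cells Hif1a had 159 to 211 CPM with IL-33 plus dopamine, 162 to 201 CPM with IL-33 and 197 to 208 CPM with PBS, and 1 of 18 HIF pathway genes was higher without overlap with dopamine under IL-33 (5.56%, background 7.81%).

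The median log2 fold change in bulk was 0.36 for 17 regulators and pyruvate fate genes (2 higher and 2 lower without overlap), -0.19 for 6 pentose phosphate genes (1 higher, 2 lower) and 0.32 for 9 MYC and mTORC1 genes (1 higher, 0 lower), against 0.49 over all genes. Over these 32 genes 4 were higher (12.5%, background 23.5%) and 4 were lower (12.5%, background 6.57%). The lower ones were Bsg, Mpc1, Pgls and Tkt, named after their values were seen. Each had a mean of at least 100 TPM, where 30.4% of genes were lower without overlap and the median log2 fold change was -0.11. In the single cells the medians for dopamine under IL-33 were -0.015, -0.0048 and -0.025, with 0 of 32 genes higher (background 7.81%) and 1 lower (3.12%, background 6.93%) without overlap. The lists overlap the members in none of their genes.

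Across the 47 hashtag-by-cluster sums, the 5 genes outside the members whose profile was most like the members' mean were Grb2, Cd44, Mif4gd, Pdlim1 and Tomm20. Their Pearson correlations were 0.799, 0.774, 0.752, 0.751 and 0.750, among 2501 genes with a mean of at least 50 CPM. The members themselves correlated with that mean, of which each is a part, at -0.049 for Aldoa to 0.712 for Pfkp, so no single profile describes all 10.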

How the data were processed

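Bulk values are TPM made by the authors; per the submitters' processing notes, cutadapt 2.10, STAR 2.7.5c, RSEM 1.3.3, Cell Ranger 6.1.1, Seurat 4.0.2 and the build mm10 were used, with no settings named. The single-cell table holds whole-number UMI counts deposited by the authors, with a hashtag, a treatment and a cluster number for each of 9076 cells. The percent of mitochondrial UMIs per cell was computed by the authors, as deposited, and had a median of 3.99% to 4.25% per hashtag. No source used here states a doublet step, and none was added.

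Members and gene lists were chosen with earlier results of these data known. All 10 members are named, with 7 fixed genes of other lists, called genes of those lists (none) and the 5 genes most like the members' mean z-score of log2(CPM + 10); others are named as chosen after their values were seen. Member positions, overlapping genes and named copies came from GENCODE M21 on GRCm38, and promoters from RefSeq.

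Bulk TPM were tested with limma 3.58.1 (trend) on log2(TPM + 1), a scale that understates fold changes of low genes, over genes that reached a TPM of 1 in 3 or more of the 6 libraries. UMI counts were summed per hashtag and tested with edgeR 4.0.16 (TMM, filterByExpr, quasi-likelihood), in all cells and within clusters with at least 20 cells per hashtag. DESeq2 1.42.0 was an alternative, in R 4.3.3. P-values were adjusted by Benjamini-Hochberg over all genes of a fit and called under 0.05. Other alternatives were other pseudocounts, filters, scalings, weights, covariates and cell filters, and leaving out each library or hashtag. Without overlap means that every value of a group lies on 1 side of all values of the other. Intervals cover 95%.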

Additional observations from a re-analysis of the deposited data

Results flagged for a closer look

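The dopamine difference of 2 members pointed opposite ways in different data, with no overlap between groups in either. Slc2a1 had a log2 fold change of 1.26 in bulk, where all dopamine libraries were higher, and of -0.85 in cluster 1 of the single cells, where all IL-33 plus dopamine hashtags (1.48 to 9.15 CPM) lay below all IL-33 hashtags (9.81 to 16.9 CPM). These rest on 10, 12 and 1 UMIs in the IL-33 plus dopamine hashtags and 40, 16 and 20 UMIs in the IL-33 hashtags. Eno1 had a log2 fold change of -0.32 in bulk, and of 0.44 in cluster 0 and 0.38 in cluster 2, where all IL-33 plus dopamine hashtags were higher than all IL-33 hashtags (54.3 to 67.9 CPM against 40.5 to 53.6 CPM in cluster 0, and 53.7 to 68.1 CPM against 45.7 to 51.8 CPM in cluster 2). The differences between bulk and cluster were not tested, and none of the cluster values passed adjustment in edgeR. Over all single cells the log2 fold changes were -0.060 for Slc2a1 and 0.14 for Eno1, both with overlap. The single-cell level of neither gene was shown to exceed free RNA. The bulk cells came from female and the single cells from male mice, and bulk libraries covered whole transcripts where droplets measured 3' ends, so sex, method and cluster cannot be told apart. The cluster values above were picked from 60 member-by-cluster tests, of which 3 (5%) were higher without overlap, against 6.84% of all gene-by-cluster tests, and 2 (3.33%) lower, against 5.11%. Groups opposite to bulk with no overlap in either were found in 3 of the 60 (5%), against 1.46% of all 42399 such tests, and for 2 of 10 members (20%), against 6.54% of 8061 genes. These shares are not matched for overlap in bulk, so they do not show an excess among members. In bulk, 10% of members were higher and 50% lower without overlap, against 23.5% and 6.57% of all genes. Eno1 also counts in both cluster 0 and cluster 2.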

How the results depend on the processing

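No member was called over all single cells in any setting or with a hashtag left out. Within clusters no member was called in any setting either, but hashtags were not left out there. In bulk, 4 members were called with array weights and 0 to 1 when 1 library was left out (Pfkp without PBS library 1); all other settings called 0. With a replicate block, 0 members and 15 genes were called; replicate numbers correlated at 0.019, -0.071 and -0.0018 after removal of group means, so they were not taken to pair libraries, and hashtags share no numbers. Counts over all genes moved more: 4 in bulk, with 0 (no filter) to 2800 (array weights), 1536 without PBS library 1 and 0 without PBS library 2; 3 for dopamine under IL-33, with 27 by DESeq2; 74 for IL-33 over PBS, with 0 (all hashtags in 1 fit) to 322 (no filter). The summed share of the members moved by less than 1 SD in all settings. In bulk the members lower without overlap kept their sign over the 16 settings, left-out libraries included, but their size varied. Their log2 fold changes ran from -0.73 to -0.089 for Aldoa, -0.97 to -0.18 for Gapdh and -1.12 to -0.47 for Pgk1. They ran from -0.86 to -0.24 for Eno1 and from -0.85 to -0.19 for Ldha. The log2 fold changes that changed sign were these, and the causes were not tested. In bulk, Pkm was -0.33 with median-of-ratios scaling and 0.17 relative to all genes with quantile normalization. With the number of genes detected as a covariate, Slc2a1 was -0.076, Hk2 -0.083, Pfkp -0.077 and Pkm -0.43, and relative to all genes Slc2a1 was -0.057, Hk2 -0.064 and Pfkp -0.058. That number does not overlap between the treatments, so this fit cannot tell them apart. No bulk member changed sign with a library left out. For dopamine under IL-33, Aldoa was -0.0018 without a filter; between the 10th and 90th percentile of UMIs Aldoa was -0.00078 and Ldha -0.0042. Leaving out hashtags gave -0.18 to 0.065 for Slc2a1, -0.094 to 0.077 for Aldoa, -0.13 to 0.027 for Pkm, -0.10 to 0.11 for Pfkp and -0.10 to 0.20 for Ldha. For IL-33 over PBS, Slc2a1 was 0.025 with no normalization factors, 0.016 without a filter and 0.034 between the percentiles, where Gapdh was -0.016 and Pkm -0.021. Leaving out hashtags gave -0.053 to 0.056 for Pkm and -0.11 to 0.072 for Slc2a1. For IL-33 plus dopamine over PBS, Eno1 was 0.016 and Pkm 0.0031 with no normalization factors, and Eno1 was 0.0037 without a filter. Between the percentiles Slc2a1 was 0.0018, Hk2 -0.090, Gapdh -0.075, Pgam1 -0.012 and Pgk1 -0.056. Leaving out hashtags gave -0.096 to 0.094 for Eno1, -0.064 to 0.10 for Gapdh, -0.045 to 0.10 for Pgk1, -0.19 to 0.053 for Slc2a1, -0.12 to 0.035 for Pkm, -0.11 to 0.17 for Pgam1, -0.22 to 0.077 for Ldha and -0.13 to 0.20 for Hk2. Depth of the bulk libraries is unknown.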

Other observations

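Ldha differed between hashtags of the same treatment. In the IL-33 plus dopamine cells it was highest in hashtag 8 in 5 of 6 clusters and lowest in hashtag 6 in 5 of 6. In the IL-33 cells it was highest in hashtag 4 in 5 of 6 clusters and lowest in hashtag 5 in all 6. Over whole hashtags the coefficient of variation was 17.7% with IL-33 plus dopamine and 15.6% with IL-33, where counting error alone gives 1.41% and 1.33%. Among 593 genes with a mean of at least 200 CPM, a level chosen after the values were seen, 10.3% varied more with IL-33 plus dopamine and 3.71% with IL-33, and the median was 6.17% and 4.45%. The single-cell intervals of Ldha given above carry this spread.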
